A study of Mus musculus with 77 samples.

Results

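The 2 arms of miR-126, mmu-miR-126-3p and mmu-miR-126-5p (miR-126-3p and miR-126-5p from here on), were described across 36 miRNA libraries of mouse cells. They were chosen by probe name, and are 2 of the 566 mouse miRNA probes on the NanoString nCounter code set, an assay that counts colour-coded tags bound to single molecules without amplification. The code set also holds 33 probes for viral miRNAs and 4 for mRNAs. All libraries came from C57BL/6 mice, and no genotype, treatment or age beyond the word adult is given for them in the sources used here. Per the design text the cells were sorted by flow cytometry, and adult microglia were gated as FCRLS+.

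In the immune set of 24 libraries, macrophages came from lung, liver, heart, kidney, muscle, gut and spleen (7 libraries), and the sources used here do not give their gate. Adult microglia (7 libraries) came from the brain, its cortex, hippocampus, cerebellum and olfactory bulb, the spinal cord and the eye. CD11b/Ly6C low and CD11b/Ly6C high cells came from spleen and bone marrow (4 libraries). The lymphocytes, all from spleen, were NK1.1 natural killer cells, B220 B cells, CD3/CD4 T cells and Foxp3 CD4 regulatory T cells (4 libraries). CD11b/CD11c dendritic cells from spleen and Ly6G neutrophils from blood had a single library each. In the neural set of 12 libraries, adult astrocytes, adult oligodendrocytes, primary cortical neurons, primary hippocampal neurons, spleen red pulp macrophages and microglia had 2 libraries each. No library of endothelial cells was among them, so the endothelial character of the arms could not be checked against its own cell type here. Nothing in the labels says that libraries of a group came from separate animals, so p-values measure the spread between these libraries, which in the immune set is a spread between organs, sites or subsets.

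miR-126 is made from a hairpin inside an intron of Egfl7, a gene of vessel endothelium, and is best known as a miRNA of endothelial cells, with expression also described in haematopoietic stem and progenitor cells. A hairpin yields a mature strand from each side. The 3p strand of miR-126 represses Spred1 and Pik3r2, which restrain signalling from vascular endothelial growth factor, and in mouse endothelium the 5p strand represses Dlk1. In sorted tissue cells the miRNA is of interest because capillaries run through every organ studied here.

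The strand on which the results turn is shown first, with its seed (bases 2 to 8) in capitals. It is listed by RefSeq as miR-126a-3p and lies on the plus strand at chr2:26591402-26591423 (GRCm38.p6).

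miR-126a-3p: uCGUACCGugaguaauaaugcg

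Of 1679 mature mouse miRNAs in the RefSeq table, 1 carries this seed, miR-126a-3p itself, so no other entry of that table shares it. The hairpin that holds it lies at chr2:26591357-26591429, inside the annotated span of Egfl7, and is shown because both arms are cut from it. The capitals mark the 3p strand, at bases 46 to 67 of the 73.

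Mir126a hairpin: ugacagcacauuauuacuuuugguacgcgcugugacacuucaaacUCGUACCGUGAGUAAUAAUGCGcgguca

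Mir126b is annotated on the opposite strand and shares 58 bases of the span. Of the 2 probes, 1 (miR-126-3p) matched a mature sequence in the table.

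Each library's barcode counts had been scaled by a single factor, and the 2 sets were normalised separately, so no value of one set is set against the other. Recovered totals were 1741 to 75635 counts per library in the immune set and 3699 to 20487 in the neural set. Macrophages were among the shallow libraries, with 1741 to 7148 counts. Microglia had 2555 to 32277 counts, CD11b/Ly6C cells 5283 to 70672 and lymphocytes 15598 to 75635. The background limit of a library is the mean plus 2 SD of its 33 viral probes. It lay between 2.38 and 38.0 in the immune set and between 51.9 and 259 in the neural set. Intervals given with counts cover counting error only. In these bulk libraries fewer cells of a type and less RNA per cell cannot be told apart. On the matching gene panel, the microglia marker P2ry12 was at 5382 to 24003 in microglia of the 7 sites and at 7.84 to 192 in macrophages of the 7 organs.

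miR-126-3p was above the background limit in 11 of the 36 libraries: 5 organ macrophages, 2 CD11b/Ly6C populations, both astrocytes and both oligodendrocytes. With the limit at 3 SD or at the highest viral probe it was 10, without the Ly6C low cells of spleen (4.13, against 4.85 and 5.16). miR-126-5p was above it in 2, lung and heart macrophages. No microglia, lymphocyte, neuron, dendritic cell, neutrophil or red pulp macrophage library was above its limit for either arm.

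Among organ macrophages the 3p arm ran from lung at the top to spleen at the bottom. Lung macrophages had a value of 751 from 403 counts, liver macrophages 572 from 67 counts and heart macrophages 375 from 98 counts. Kidney macrophages had 119 from 69 counts and muscle macrophages 118 from 21 counts. Gut macrophages had 23.0 from 3 counts, under a limit of 33.9, and spleen macrophages had 5.14 from 2 counts, under a limit of 11.3. The 5 libraries above background thus exceeded their own limits by 4.04 times in muscle, 15.1 in liver, 16.2 in kidney, 17.0 in heart and 68.9 in lung.

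Between neighbours in this order, 2 steps in deposited value were larger than counting error. Heart was 3.15 times kidney, with 95% Poisson intervals of 304 to 456 for heart and 92.4 to 150 for kidney. Muscle and gut also had intervals apart, 72.8 to 180 for muscle and 4.75 to 67.3 for gut, and gut was under its limit, so no fold is given. In deposited value, lung and liver, liver and heart, kidney and muscle, and gut and spleen did not differ beyond counting error. With 1 library per organ, the difference between organs has no replicate check.

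**Figure D1:**
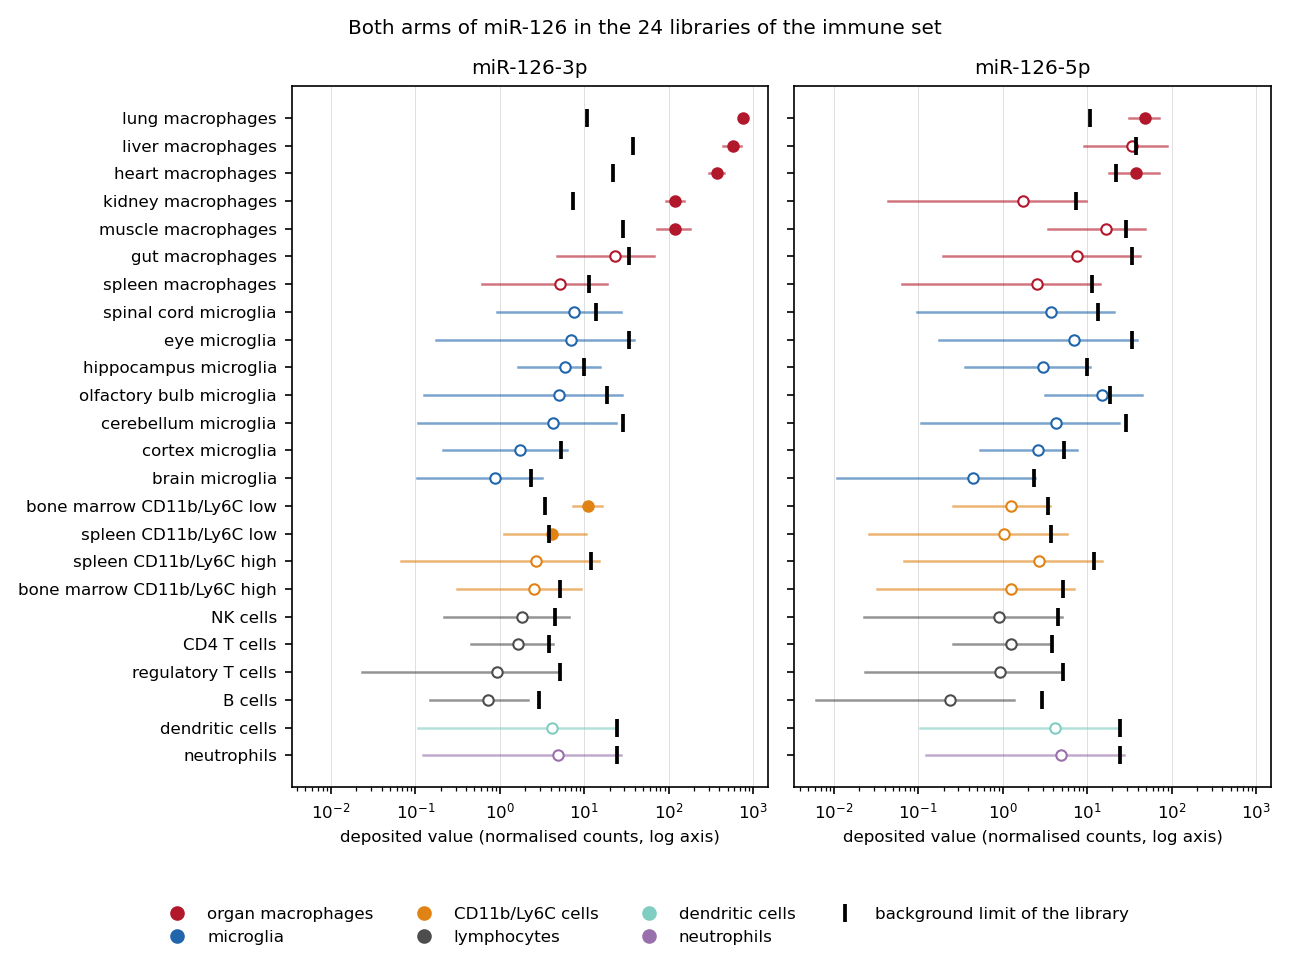
Deposited value of miR-126-3p (left) and miR-126-5p (right) in each library of the immune set, on a log axis. Points are values, filled where above the library's background limit, lines are exact 95% Poisson intervals and black ticks are the limits. Lung, liver, heart, kidney and muscle macrophages (751 to 118) lie clear of their limits for the 3p arm, and only lung and heart macrophages do for the 5p arm.

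As a share of all mouse miRNA counts in the library, which does not use the authors' factor, miR-126-3p took 6.93% in lung macrophages (exact binomial 95% interval 6.29 to 7.62). It took 4.52% in liver (3.52 to 5.70), 2.52% in heart (2.05 to 3.06), 1.31% in kidney (1.02 to 1.66) and 0.649% in muscle macrophages (0.402 to 0.991). By share, the intervals of lung and liver, liver and heart, and kidney and muscle lay apart, unlike those of the deposited values. It held the highest value of any mouse probe in liver macrophages, the second highest in lung macrophages, after miR-223, and the third highest in heart macrophages, though probes differ in efficiency and their values are not on a shared scale. In gut macrophages the share was 0.0900% (0.0186 to 0.263) and in spleen macrophages 0.0496% (0.00601 to 0.179).

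In microglia of the immune set the 3p arm was represented by 1 to 4 counts per library. The values were 7.57 in spinal cord, 6.97 in eye, 6.00 in hippocampus, 5.07 in olfactory bulb, 4.28 in cerebellum, 1.75 in cortex and 0.87 in brain. All 7 lay under their limits, at 0.149 to 0.605 of them, and no order between sites can be read from them. Summed over the 7 sites, 13 of 66347 mouse miRNA counts were miR-126-3p, a share of 0.0196% (0.0104 to 0.0335). The deep brain and cortex libraries (32277 and 15643 recovered counts) weigh most in that sum. By site the share ran from 0.00652% to 0.0729%, with a median of 0.0392%. The upper bounds of the 7 sites reached 0.263% at most, below the lower bound of 0.402% in muscle macrophages, the lowest of the 5 organs above background. The gut and spleen macrophage intervals overlapped those of microglia. Since the lowest count in every immune library was 1, 0 counts and 1 count could not be told apart.

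The difference between organ macrophages and microglia was then tested over all miRNAs. The value of miR-126-3p was 280 ± 292 in macrophages and 4.64 ± 2.54 in microglia (SD, n = 7 each), and 6 of the 7 macrophage libraries, all but spleen, lay above every microglia library, though gut too was under its limit. The log2 difference was 3.34 ± 0.47 (SE, on log2(value + 10), limma, adjusted p = 4.61e-07), the largest of the 132 miRNAs tested, where the median was 0.25. Among those 132, 12.9% were called and 5.3% were called higher in macrophages. The arm entered the 132 through values above 20 in macrophage libraries alone, so its place among them is not free of that selection. The limma SE and p use a spread pooled over the immune groups and drawn toward that of other miRNAs. The arm varied far more between macrophage organs than between microglia sites, so they do not measure the spread of macrophages. An exact permutation test of the 7 against 7 libraries, which does not use the pooled spread, gave p = 0.00233 (two-sided, adjusted p = 0.0162 over 8 such tests of the 2 arms). The size of the difference moved with the setting, from 2.00 with a pseudocount of 50 to 6.04 with edgeR on recovered counts, and was 2.75 with every value raised to its library's limit. Without the libraries under 5000 counts, which left 2 macrophage and 3 microglia libraries, and with no minimum, it was 4.62 ± 0.43 (limma, adjusted p = 5.90e-10), a setting chosen after seeing the data. The 2 macrophage libraries left were lung and kidney, both above background, so this setting also changed which organs were compared.

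**Figure D2:**
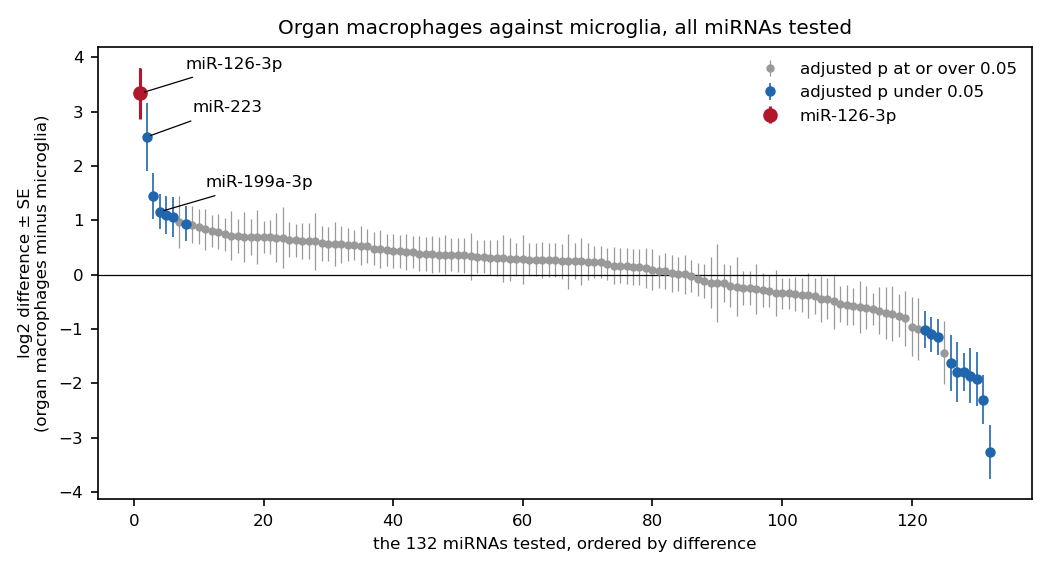
Log2 difference ± SE between organ macrophages and microglia for each of the 132 miRNAs tested, ordered by size, with blue points for adjusted p under 0.05. miR-126-3p, in red, has the highest difference, 3.34, followed by miR-223 at 2.53.

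The 3p arm was also higher in organ macrophages than in CD11b/Ly6C cells of spleen and bone marrow and than in lymphocytes of spleen. CD11b/Ly6C cells averaged 5.12 ± 4.07 (SD, n = 4), and the log2 difference of macrophages from them was 3.30 ± 0.56 (SE, limma, adjusted p = 1.36e-05), in a comparison that called 47% of miRNAs. Lymphocytes averaged 1.28 ± 0.53 (SD, n = 4), with a log2 difference of macrophages from them of 3.69 ± 0.56 (SE, limma, adjusted p = 7.86e-07) where 68.9% of miRNAs were called. The values of gut and spleen macrophages, from 3 and 2 counts, also exceeded those of lymphocytes, from 1 to 4 counts, but 1 count was worth 7.68 in gut and 2.57 in spleen macrophages, against 0.244 to 0.918 in lymphocytes. As shares of counts, spleen macrophages (0.00601 to 0.179%) and NK cells (0.00180 to 0.0537%) overlapped. The exact permutation tests gave p = 0.0121 for CD11b/Ly6C cells and p = 0.00606 for lymphocytes (two-sided, adjusted p = 0.0242 and 0.0162). Over the alternatives the differences ran from 1.99 to 4.63 for CD11b/Ly6C cells and from 2.09 to 6.81 for lymphocytes. The call was kept in each alternative that gave a p-value. These comparisons share the 7 macrophage libraries and are not independent of each other, and their limma tests use the same pooled spread. In both, as in the comparison with microglia, miR-126-3p met the minimum of the fit through macrophage libraries alone.

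Within the CD11b/Ly6C cells, the arm was highest in the Ly6C low cells of bone marrow, at 11.1 from 27 counts, which is 3.21 times the limit of that library. Ly6C low cells of spleen had 4.13 from 4 counts, 1.09 times the limit. Ly6C high cells had 2.69 in spleen and 2.54 in bone marrow, from 1 and 2 counts, both under their limits. The bone marrow Ly6C low library was also among the deepest, with 70672 counts, and its share of miR-126-3p, 0.0495% (0.0326 to 0.0720), had an interval that overlapped those of the 3 other CD11b/Ly6C libraries.

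Lymphocytes and the single libraries of other blood cells were at background. NK cells had 1.81, CD4 T cells 1.65, regulatory T cells 0.92 and B cells 0.73, from 1 to 4 counts each, and the summed share over the 4 was 0.00743% (0.00357 to 0.0137). Dendritic cells had 4.19 and neutrophils 4.87, each from 1 count, under limits of 24.3 and 24.5. For microglia, the 3p arm did not pass the test against CD11b/Ly6C cells (log2 difference -0.03 ± 0.56, limma, adjusted p = 0.962, 15.2% of miRNAs called) or against lymphocytes (0.36 ± 0.56, adjusted p = 0.632, 22% called), with no value of microglia above background.

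The 5p arm was far lower in counts. Lung macrophages had 48.5 from 26 counts, heart macrophages 38.2 from 10 counts and liver macrophages 34.1 from 4 counts, the last at 0.899 of its limit. Muscle macrophages had 16.8 from 3 counts, and gut, spleen and kidney macrophages had 7.68, 2.57 and 1.72 from 1 count each. Microglia had between 0.44 in brain and 15.2 in olfactory bulb, from 1 to 3 counts. The groups overlapped, with 4 of the 7 macrophage libraries above every microglia library, of which lung and heart were above background.

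miR-126-5p was too low to enter the test over 132 miRNAs. Over all 566 with no minimum, its log2 difference between macrophages and microglia was 0.84 ± 0.27 (limma, adjusted p = 0.0819), against CD11b/Ly6C cells 1.19 ± 0.31 (adjusted p = 0.0104) and against lymphocytes 1.28 ± 0.31 (adjusted p = 0.00354). The exact permutation tests of the arm alone gave p = 0.0583, 0.0182 and 0.00606 in the same order (two-sided, adjusted p = 0.0666, 0.0291 and 0.0162). Against microglia the exact p was under 0.05 without kidney macrophages (0.0233), spleen macrophages (0.0303) or olfactory bulb microglia (0.0408). At 1 count the value is the worth of a single count, which was 1.72 to 8.53 in macrophages and 0.244 to 0.918 in lymphocytes. The absence of overlap between these groups therefore includes libraries at the same lowest count, and the part of depth in the 5p differences was not tested.

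Where both arms were above background, the 3p strand made up most of their counts: 93.9% in lung macrophages (exact binomial 95% interval 91.2 to 96.0) and 90.7% in heart macrophages (83.6 to 95.5). Kidney macrophages had 69 counts of 3p and 1 of 5p, a 3p share of 98.6% with a lower bound of 92.3. These shares compare 2 probes of unknown relative efficiency.

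RNA from vessel and tissue cells was assessed with marker lists set beside the arm. Between 62 and 151 of the 566 mouse probes were above background in a macrophage library, and between 60 and 185 in a microglia library. Of 9 other miRNAs expressed in endothelium and elsewhere, 0 to 3 were above it in each macrophage library, and 3 in any of them. miR-10a was above it in lung, muscle and kidney macrophages (31.7, 33.6 and 24.1), miR-23b in lung and kidney (42.9 and 10.3) and miR-130a in spleen and kidney (33.4 and 24.1). In microglia 4 of the 9 were above it in any library (miR-10a, miR-23b, miR-92a and miR-130a), with 0 to 4 in each. The summed level of the list was 77.4 to 162 in macrophages and 30.2 to 83.6 in microglia, sums made up largely of members under background: the highest in each group, in liver macrophages and eye microglia, had 0 of 9 members above limits of 38.0 and 33.6. Of the 9, 2 (miR-10a and miR-23b) were abundant enough for the test and 0 were called, with log2 differences of 0.37 and 0.30 (limma, adjusted p = 0.447 and 0.530). Among all 132 miRNAs tested 12.9% were called, so 0 of 2 is no result about the list.

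Of 5 miRNAs of pericytes, smooth muscle and stroma, miR-145 and miR-199a-3p were above background in organ macrophages. miR-145 was so in lung, heart and kidney (22.4, 22.9 and 12.0), and miR-199a-3p in liver, heart, gut and lung (93.9, 49.7, 38.4 and 37.3). The summed level of the list was 23.1 to 128 in macrophages and 6.57 to 77.0 in microglia, in which miR-143, miR-145 and miR-199a-3p were each above background in 1 library. miR-199a-3p, the 1 member tested, was higher in macrophages by 1.16 ± 0.32 (limma, adjusted p = 0.0116). Over the 7 organs the Pearson r with miR-126-3p was 0.76 for miR-145 and 0.64 for miR-199a-3p, as a description over libraries that also share depth. The highest of 13 such correlations was that of the epithelial miR-205, at 0.79.

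miRNAs of parenchymal and blood cells were also looked at. The hepatocyte miRNA miR-122 was above background in liver macrophages, at 51.2 against a limit of 38.0, and also in brain microglia, at 3.5 against 2.38. The striated muscle miRNA miR-1 was above it in heart (34.4), muscle (33.6) and gut (38.4) macrophages and in olfactory bulb microglia (20.3). It was also above background in neutrophils and in Ly6C low and Ly6C high cells of bone marrow. In the neural set it was so in the second library of red pulp macrophages and of astrocytes. The other members of that list of 7 did not follow the organ: the heart miRNA miR-208a was above background in spleen (95.2) and kidney (43.0) macrophages and not in heart, and miR-206 in liver macrophages (42.7). miR-133a and miR-133b were above it in no organ macrophage library.

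Of the epithelial list, 9 of 10 members were on the code set and 7 were above background in any organ macrophage library. miR-200b was above it in all 7 organs (43.7 to 162) and all 7 microglia sites (11.4 to 265). miR-205 was so in 5 organs (12.9 to 59.7) and all 7 microglia sites (3.94 to 55.8). Of the 3 members tested, 0 were called between macrophages and microglia, where 12.9% of all 132 were, so this is no result about the list. miR-451 of red cells was above background in spleen (66.9), heart (61.2), kidney (55.1) and lung (18.7) macrophages, with a Pearson r of -0.24 with the arm over the 7 organs, and was called higher in macrophages than in microglia (1.06 ± 0.37, limma, adjusted p = 0.0478). Of 4 haematopoietic miRNAs, 2 were called higher in macrophages, miR-223 and miR-150, against 5.3% of all 132. All 4 were above background in lung and kidney macrophages, where miR-126-3p was too, and in spleen macrophages, where it was not. The part of carried-over RNA from any of these cell types in the level of miR-126-3p was not tested.

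The MG400 gene panel held 2 of 19 listed endothelial genes, Eng and Slco1a4, and none of 6 mural genes. Panel and miRNA libraries are matched here by organ label, and the sources used here do not say whether they share RNA. Eng, the endothelial co-receptor endoglin that some macrophages also make, was at 1177 in liver macrophages, 805 in heart and 309 in lung. It was at 104 in kidney, 93.0 in gut, 88.2 in spleen red pulp and 81.5 in muscle macrophages. The 3 organs with the most Eng were thus the 3 with the most miR-126-3p, and over the 7 organs Pearson r was 0.77 and Spearman rho 0.79, a description with n = 7 in which gut and spleen were at background for the arm.

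In microglia Eng was at 201.4 to 402, above 4 of the 7 macrophage libraries, while miR-126-3p was at background in all 7. Panel medians were also higher in microglia, at 150 to 302, than in macrophages, at 50.9 to 123. By rank within its library, Eng stood at 145 to 250.5 in microglia. In those 4 macrophage libraries (kidney, gut, spleen red pulp and muscle) it ranked 131.5 to 263.5, so the difference in value was not seen in rank. Slco1a4, an organic anion transporter of brain endothelium, was at 10.4 to 217 in macrophages and 6.04 to 252 in microglia. It did not follow the arm over the organs (Pearson r = -0.35, Spearman rho = -0.39), and its highest microglia value, in cerebellum, came from a panel library whose lowest value was 50.3. With 2 of 19 genes present, the panel gives a narrow view of vessel RNA.

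**Figure D3:**
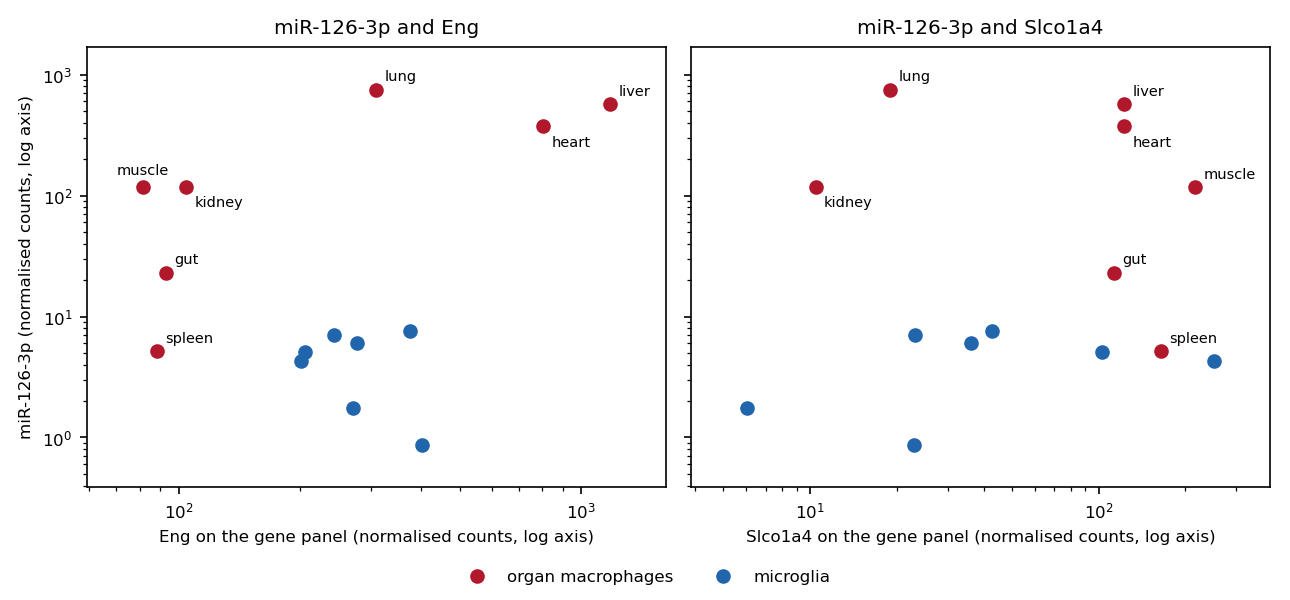
miR-126-3p against Eng (left) and Slco1a4 (right) on the gene panel for macrophages of 7 organs and microglia of 7 sites, both axes on log scales. Among macrophages, those of liver, heart and lung have the highest Eng (1177, 805 and 309) and the highest miR-126-3p. Microglia have Eng at 201.4 to 402, from panel libraries with higher medians, and miR-126-3p at 0.87 to 7.57.

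In the neural set the 3p arm was highest in astrocytes. The 2 astrocyte libraries had 394 and 255, from 196 and 94 counts, at 6.78 and 3.69 times their limits. Oligodendrocytes had 124 and 133, from 42 and 59 counts, at 1.53 and 1.74 times theirs. Cortical neurons had 45 and 52 and hippocampal neurons 78 and 51, of which the first came from 5 counts in the shallowest library of the set and the second stood at 0.983 of its limit. Red pulp macrophages had 42.0 and 44.0 and microglia 23.0 and 34.0. Both astrocyte libraries lay above all 10 others, both oligodendrocyte libraries above the remaining 8, and those 8 were at background. The first hippocampal neuron library had a limit of 259, above both oligodendrocyte values and the second astrocyte value, so it could not show the arm at those levels. Its counting interval (25.5 to 183) overlapped those of oligodendrocytes (89.5 to 168 and 101 to 172), as did that of the second cortical neuron library (21.0 to 107).

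**Figure D4:**
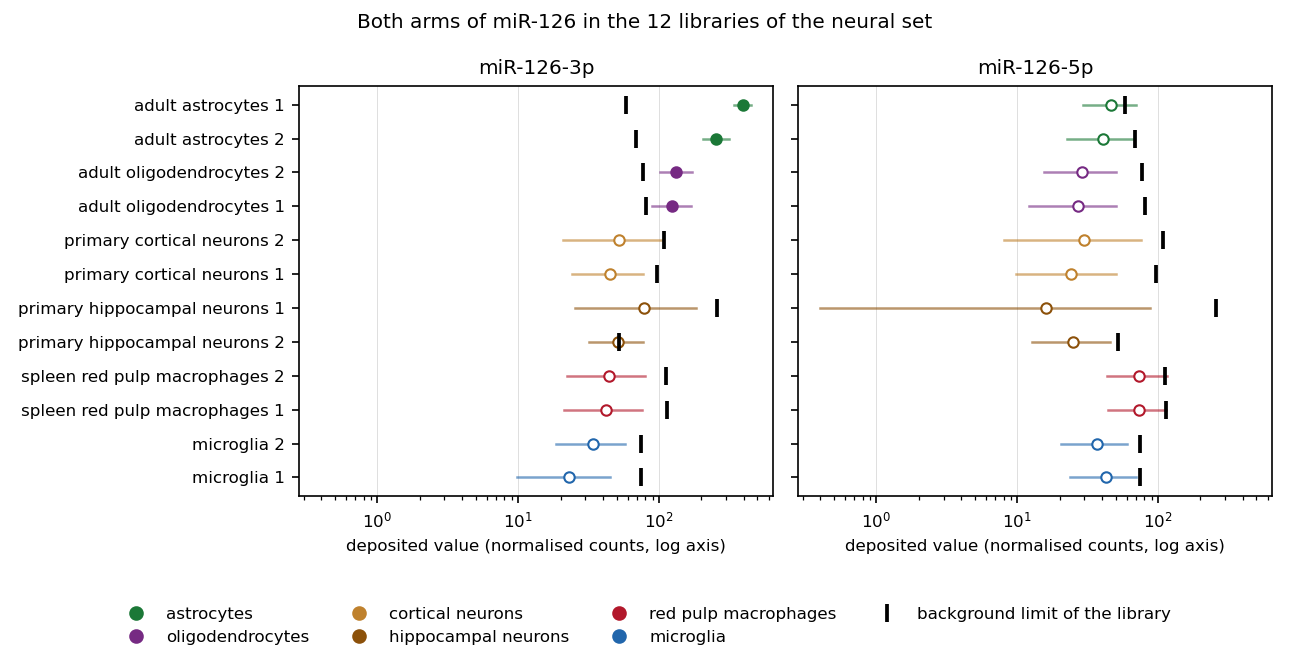
Deposited value of miR-126-3p (left) and miR-126-5p (right) in each library of the neural set, drawn as in the plot of the immune set. For the 3p arm the astrocyte (394 and 255) and oligodendrocyte (124 and 133) libraries exceed their limits, and for the 5p arm no library does.

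The share of mouse miRNA counts was 0.894% in astrocytes (exact binomial 95% interval 0.795 to 1.00, both libraries summed) and 0.404% in oligodendrocytes (0.329 to 0.491). It was 0.134% in neurons (0.0984 to 0.178), 0.104% in red pulp macrophages (0.0652 to 0.157) and 0.0802% in microglia (0.0503 to 0.121). The 2 astrocyte libraries differed from each other by 1.55 times, more than counting error (intervals 341 to 453 and 206 to 312). The lower of them exceeded the higher oligodendrocyte library by 1.92 times, again with intervals apart.

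Astrocytes differed from microglia by 3.10 ± 0.49 on the log2 scale (SE, limma, n = 2 each, adjusted p = 0.00046) in a comparison that called 1.41% of 566 miRNAs. The difference from red pulp macrophages was 2.63 ± 0.49 (adjusted p = 0.00323, 0.883% called). From the mean of both neurons it was 2.32 ± 0.42 (adjusted p = 0.00366, 1.06% called), and from the mean of oligodendrocytes and both neurons 1.96 ± 0.40 (adjusted p = 0.00752, 1.59% called). The difference from oligodendrocytes alone was 1.24 ± 0.49 and was not called (adjusted p = 0.801); limma called 0% of miRNAs there, with 20 at an unadjusted p under 0.05, and edgeR called 2. An exact permutation test of astrocytes against the 10 other libraries gave p = 0.0303 (two-sided, adjusted p = 0.0404, smallest possible p = 0.0152).

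The neural calls leaned on single libraries. Without the first astrocyte library the adjusted p was 0.0502 against microglia, 0.223 against red pulp macrophages, 0.347 against neurons and 0.512 against the mean of 3 cell types. Without the second it was 0.0515 against that mean, and without the first or second red pulp library it was 0.120 or 0.0930 against red pulp macrophages. Fitted on the compared groups alone, the arm was no longer called against neurons (adjusted p = 0.124) or the mean of 3 cell types (0.0783). With values raised to the background limit, the differences were 1.95 against microglia, 1.41 against red pulp macrophages, 1.44 against neurons and 1.37 against the mean of 3.

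miR-126-5p was under the limit in all 12 neural-set libraries. It had 46.0 and 41.0 in astrocytes, 27.0 and 29.0 in oligodendrocytes, 24.0 and 30.0 in cortical neurons and 16.0 and 25.0 in hippocampal neurons. Red pulp macrophages had 73.0 in each library and microglia 43.0 and 37.0. None of its astrocyte comparisons was called (limma, adjusted p from 0.389 to 0.999), and the exact permutation test of astrocytes against the other 10 gave p = 0.576. With all values at background, no order between the cell types can be read from them.

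Markers of astrocytes and other cell types were then read in the astrocyte libraries. On the gene panel Slc1a3, the astrocyte glutamate transporter, was at 18602 and 14709 in astrocytes, against 410 to 440 in oligodendrocytes, 417 to 1449 in neurons and 213 to 301 in microglia. Eng was at 23.0 and 19.0 in astrocytes, below the panel median of 42.0, against 24.0 to 32.0 in oligodendrocytes, 2.00 to 17.0 in neurons and 70.0 to 93.0 in microglia. Eng was thus higher in microglia, where miR-126-3p was at background, than in astrocytes and oligodendrocytes, where it was above it. Panel medians differed too, at 90.0 and 73.0 in microglia and 36.5 and 35.0 in oligodendrocytes. Slco1a4 was at 6.00 and 12.0 in astrocytes, 15.0 to 30.0 in oligodendrocytes, 5.00 to 59.0 in neurons and 11.0 to 18.0 in microglia. Of the 566 mouse probes, 71 and 78 were above background in the astrocyte libraries and 71 and 70 in the oligodendrocyte libraries. Of the 9 other endothelial-expressed miRNAs, 1 (miR-130a, at 115 and 87.0) was so in astrocytes and 0 in oligodendrocytes. The list summed to 315 and 413 in astrocytes, 316 to 324 in oligodendrocytes, 400 to 597 in neurons, 395 to 461 in red pulp macrophages and 286 to 301 in microglia, mostly of members under background. In the second hippocampal neuron library 3 of the 9 were above background (miR-130a, miR-23b and miR-218), as were 125 of the 566 mouse probes. With 9 members, these counts cannot be set apart from the shares of all probes. Of the 5 mural and stromal miRNAs, miR-145 was above it in the first astrocyte library, at 72.0 against a limit of 58.1. The oligodendrocyte miRNA miR-338-3p was at 123 and 100 in astrocytes, against 547 and 517 in oligodendrocytes. The neuronal miR-124 was above background in both astrocyte libraries (101 and 111) and in neither oligodendrocyte library, and miR-128 in the second astrocyte library (70). The neuronal list summed to 3030 and 1214 in astrocytes, mostly through miR-9 (2849 and 1011), which astrocytes also express. In neurons it summed to 343 and 179 (cortical) and 189 and 1405 (hippocampal). None of its members was above background in the second cortical and the first hippocampal neuron library, so the list did not mark all neuron libraries. The haematopoietic miR-142-5p (181 and 233) and miR-150 (105 and 95) were above background in both astrocyte libraries. miR-142-5p was so in every other neural-set library except the first of hippocampal neurons, and miR-150 in the second oligodendrocyte library. The haematopoietic list summed to 316 and 360 in astrocytes and to 481 and 886 in cortical neurons. On the panel the neurofilament gene Nefl was at 16 and 42 in astrocytes, against 35 to 346 in neurons. The part of other cells in the astrocyte level was not tested.

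The miRNAs whose pattern was most like that of miR-126-3p were ranked by Pearson r of log2 values. Over the 24 immune libraries, among 117 candidates, they were miR-199a-3p (0.80), miR-682 (0.65), miR-205 (0.58), miR-762 (0.51) and miR-467e (0.50), all with their highest value in liver macrophages, the shallowest library. miR-199a-3p reached 93.9 in liver and 6.88 in its lowest macrophage library, with 1.75 to 21.4 in microglia. Over the 12 neural-set libraries, among 84 candidates, they were miR-204 (0.92), miR-100 (0.77), let-7b (0.75), miR-9 (0.72) and miR-151-5p (0.69), all highest in the first astrocyte library. miR-204, which is abundant in astrocytes, had 901 and 428 there and 82.0 or less in microglia. These correlations share library, depth and factor and are given as descriptions.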

How the data were processed

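The authors deposited a scaled signal for each probe of the immune set, which holds 2 decimals and equals the barcode count times a constant of the library. In the neural set they deposited a score, the same quantity rounded to whole numbers. What sets the constants, and whether background was subtracted, the sources used here do not say. Counts were recovered from the smallest step: 100% of immune values were whole within 0.1 of a count, and 99.8% to 100% of neural values within the rounding of 0.5. RNA was extracted with a column kit for small RNA, per the labels' protocols. The gene panel was read as the deposited signal (immune groups) and score (neural groups).

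Libraries were grouped by title. The main test was limma 3.58.1 in R 4.3.3 on log2(value + 10) (lmFit, eBayes with a trend, 1 fit per set, Benjamini-Hochberg adjustment, call at adjusted p under 0.05). Differences of low miRNAs come out too small on that scale. The minimum was a value above 20 in 4 of 22 immune libraries or in 2 of 12 neural ones, which all 566 neural-set probes passed. Single arms were tested by exact permutation in scipy 1.17.1. edgeR 4.0.16 on recovered counts was an alternative. Fits were tested on simulated data. Likeness was ranked among miRNAs past that minimum and above the limit in 4 libraries. The numbers 1 and 2 of neural libraries did not pair them. The members, lists and tests were chosen with earlier results of these data known. The array clusters carry no gene names in the tables used here, so Egfl7 was not analysed here.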

Additional observations from a re-analysis of the deposited data

Results flagged for a closer look

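Of 8 combinations of arm and group with 4 to 10 libraries, 1 held a library far from the others relative to the group's range. miR-126-5p was at 2.69 in the Ly6C high cells of spleen, against 1.03 to 1.27 in the 3 other CD11b/Ly6C libraries. That value is 1 count in the shallowest library of the group (5283 counts), under a limit of 12.1. Chance flags about 1 in 20 groups.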

How the results depend on the processing

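Depth is the main limit: 11 of 24 immune libraries held under 5000 recovered counts, 1 count is the floor there, and differences at background have no order. With every library under 5000 counts left out, miR-126-3p fell below the minimum of the immune set, so that setting gives no value for it. No called difference changed direction. There were 25 alternatives for miR-126-3p against microglia and 22 each against CD11b/Ly6C cells and lymphocytes. It kept its call in each that gave a p-value, while values raised to the limit gave a difference alone. Leaving out 1 library gave 2.94 to 3.88, 2.91 to 3.85 and 3.30 to 4.24 in the same order.

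In the neural set, leaving out 1 library gave 1.66 to 2.27 for astrocytes against the mean of 3 cell types, 2.02 to 2.63 against neurons, 2.80 to 3.41 against microglia and 2.32 to 2.93 against red pulp macrophages; the lone library of an arm is then assumed to vary like the other groups. On the compared groups alone 1.96 (adjusted p = 0.0783) and 2.32 (0.124) were no longer called. Raised to the limit the arm differed by 1.37 (mean of 3), 1.44 (neurons), 1.95 (microglia) and 1.41 (red pulp macrophages), and miR-126-5p by -0.57 (mean of 3), -0.28 (oligodendrocytes), -0.71 (neurons) and -0.21 (microglia), where every value is a limit. Without the shallow hippocampal library, the difference of 1.24 from oligodendrocytes was called (limma, adjusted p = 0.0294). For miR-126-5p the exact tests gave 0.65 to 1.04 against microglia, under 0.05 without kidney macrophages (exact p = 0.0233), spleen macrophages (0.0303) or olfactory bulb microglia (0.0408), and 1.00 to 1.38 against CD11b/Ly6C cells, at exact p = 0.05 without the Ly6C low cells of spleen, those of bone marrow or the Ly6C high cells of bone marrow.

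Counts of calls moved more. Macrophages against microglia gave 17 calls, 9 with no minimum or on the compared groups, 10 at a minimum of 100 and 26 with no minimum and no shallow library (8 to 23 without 1 library, 8 without brain microglia). Against CD11b/Ly6C cells the 62 calls became 189 with no minimum, 10 at 100, 26 after quantile normalisation, 13 without shallow libraries and 22 with both (22 to 75 without 1 library, 22 without bone marrow Ly6C low cells). Against lymphocytes the 91 became 398, 25, 33, 20 and 57 under the same settings, and 59 on the compared groups (62 to 96). Microglia against CD11b/Ly6C cells gave 20, and 12 with no minimum, at 100 or scaled to the 100 highest miRNAs (11 to 27). Against lymphocytes they gave 29, 47 and 19 at pseudocounts of 1 and 50, 16 with no minimum, 12 at 100 or by quantiles, 14 without shallow libraries and 18 with no minimum besides (13 to 46).

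Astrocytes against the mean of 3 gave 9 calls, 5 at a pseudocount of 50, 18 without the shallow library, 14 by edgeR and 4 on the compared groups (0 to 183). Against oligodendrocytes 0 became 2 at a pseudocount of 50, scaled to the 100 highest or by edgeR, 6 at 100, 8 with the limit as minimum, 17 without the shallow library and 16 on the compared groups (0 to 0). Against neurons 6 became 12, 19, 22, 15 and 2 (at 100, limit, shallow, edgeR, compared groups; 0 to 273). Against microglia 8 became 14, 21 and 23 (limit, shallow, compared groups; 1 to 5). Against red pulp macrophages 5 became 11 at 100 or the limit, 9 by quantiles, 90, 22 and 125 (shallow, edgeR, compared groups; 0 to 5). The cause of these moves was not tested. Deviations of same-numbered libraries from their group means correlated at -0.251 to 0.082, so the numbers do not pair them. A separate fit with the replicate number as a block gave 6, 0, 5, 7 and 5 calls in the same 5 comparisons. It changed no call of miR-126-3p (limma, adjusted p = 0.0184, 0.999, 0.00991, 0.00171 and 0.00901).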
